A study of Xenopus laevis with 9 samples.

Results

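The lysosomal hydrolases, lysosomal membrane proteins and subunits of the vacuolar proton pump (V-ATPase) were followed in the tails of Xenopus laevis tadpoles given thyroid hormone. Members were all probe sets whose platform gene symbol, read without its homeolog suffix, named a cathepsin, a V-ATPase subunit or accessory protein, or 1 of 28 further lysosomal names. This rule took 62 of 15491 probe sets, which belong to 50 of the 7531 genes named on the array. It reads no measured value, but it was set with earlier results of these data known. Shares of members set beside those of all tested probe sets are therefore descriptions. V-ATPase subunits and accessory proteins made up 31 probe sets of 21 genes, and the other 31 probe sets belonged to 29 genes. Of the 28 further names, 13 matched no probe set and are not analysed here, among them lamp2, hexa, hexb, npc1 and gaa. Many genes of this allotetraploid frog exist as 2 homeologs, marked .L and .S, whose transcripts can cross-hybridise.

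Tails were compared in 3 groups of 3 Affymetrix arrays each. The first group had been exposed to 20 nM triiodothyronine (T3) for 48 h, the second to 20 nM T3 for 6 h, and the third to vehicle for 48 h. All larvae were labelled stage 54, and a second label field gives a stage range that ends there. They were kept as 2 per container of 500 ml FETAX, an amphibian test medium, at 20 C, and each array held the RNA of a pool of 3 tails. As there was no vehicle group at 6 h, the comparison of T3 6 h with vehicle also compares a shorter with a longer stay in the container.

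Lysosomes break down protein, glycan, lipid and nucleic acid taken in from outside or from within the cell, with hydrolases that work at acid pH. The V-ATPase supplies that acidity: its cytosolic V1 sector splits ATP and turns a rotor, and its membrane sector V0 carries protons across. Acid hydrolases have long been studied in the tadpole tail, which thyroid hormone causes to be resorbed at metamorphosis, and lysosomes of tail cells and of phagocytes both take part in that breakdown.

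Values are log2 of the deposited intensity, so 0 is the median of an array and a difference of 1 is a doubling on that array's scale. A probe set entered the tests when it exceeded log2 0 on at least 3 of the 9 arrays, and was called changed when its Benjamini-Hochberg adjusted p in limma, taken over all 8121 tested probe sets, was under 0.05. Of the 62 members, 53 were tested. Among these, 49 lay above the array median on all 9 arrays, and none had entered through the arrays of a single group. The 9 untested members were 1 of the 2 probe sets of atp6v1a.L together with atp6v1al.L, atp6v1b1.L, atp6v0a4.L, atp6ap1.1.L, ctse.L, ctse.S, fuca1.S and manba.L. The presence of muscle was checked on 22 skeletal muscle probe sets, all of which passed the same filter. That the tissue is tail rests on the labels. Correlations between arrays of a group over the tested probe sets were 0.966 to 0.988. The 3 arrays of T3 48 h stood apart from the other 6 on the first principal component, which held 47.2% of the variance, at 15.2, 38.8 and 30.6 on arrays 1, 2 and 3 against -16.6 to -11.3 on the rest.

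After 48 h of T3, 11 of the 53 tested member probe sets were called higher than in vehicle and 0 were called lower. Over all tested probe sets 4.94% were called higher and 6.05% lower. These shares were not matched for signal. The median log2 value on an array was 3.05 to 4.07 over tested members and 1.73 to 1.81 over all tested probe sets. The largest change was in the beta-galactosidase gene glb1.L, at 4.63-fold, and the other 10 called probe sets were 1.32-fold to 1.79-fold higher. They belonged to ctsb (both homeologs), lgmn.L, cd63.L and 5 V-ATPase genes, namely atp6v0a1.L, atp6v0b.L, atp6v0c.L, atp6v1b2.S and atp6v1f.L. An unadjusted p under 0.05 was reached by 29 of the 53 members and by 30.2% of all tested probe sets. Whatever their call, 48 of the 53 had a positive log2 change, and the median was 0.38, against a median of -0.05 over all tested probe sets. The 3 T3 48 h arrays all lay above the 3 vehicle arrays for 19 tested members, where 12.9% of all tested probe sets did so, and all below them for 1 tested member, where 19.7% did so. In such bulk RNA, fewer cells of a type and less RNA per cell cannot be told apart, nor can more cells and more RNA per cell.

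The number of called members moved with single arrays, as did that of all tested probe sets, given here in either direction. Leaving out T3 48 h array 1 gave 30 member calls with 23.5% of all tested probe sets called, leaving out array 2 gave 2 with 3.60%, and leaving out array 3 gave 1 with 3.51%. Leaving out T3 6 h arrays 1, 2 and 3 gave 4, 7 and 4 member calls with 8.31%, 10.05% and 7.68% of all called. Leaving out vehicle arrays 1, 2 and 3 gave 1, 1 and 6 member calls with 3.15%, 3.76% and 4.63% of all called. In either direction, the share of members called was thus above that of all tested probe sets in some fits. They were those without T3 48 h array 1 (56.6%), T3 6 h array 2 (13.2%), vehicle array 3 (11.3%) and, narrowly, T3 48 h array 2 (3.77%). It was below it without each of the other 5 arrays. That order depends on counting both directions. Without vehicle array 1, vehicle array 2 and T3 6 h array 1, all member calls were higher, at 1.89%, 1.89% and 7.55% of tested members. In those fits 130, 143 and 314 of 8121 tested probe sets were called higher, a smaller share than that of members. The gene glb1.L was called in all 9 of these fits. Each other probe set called with every array was called in 1 to 5 of the 9. The lowest count, 1, was that of ctsb.S and of the called probe set of atp6v1b2.S.

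**Figure D1:**
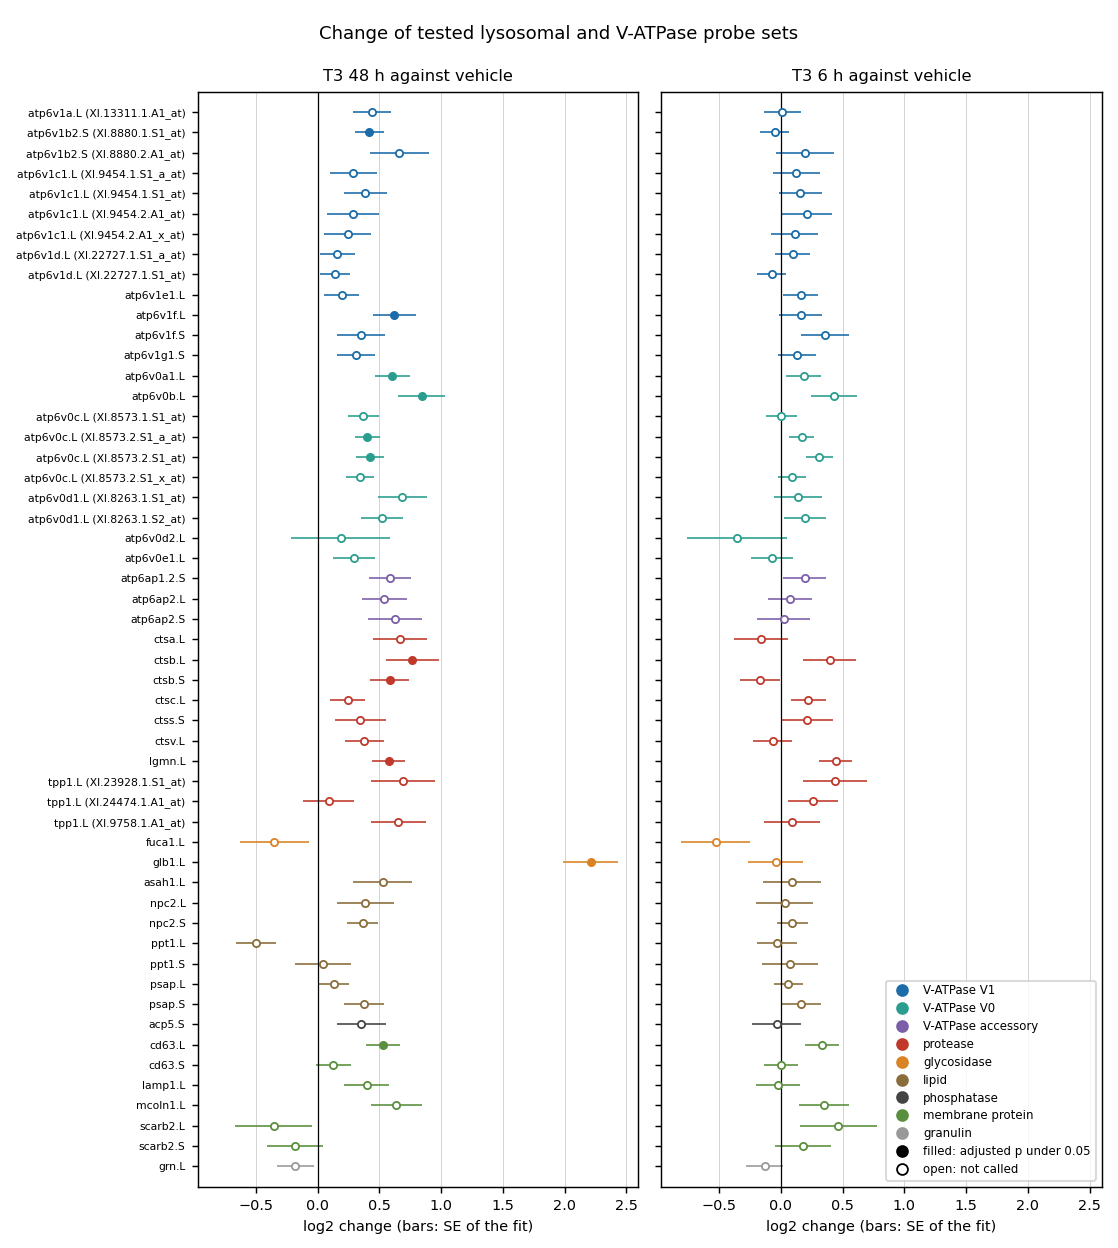
Log2 change (points, with bars for the SE of the fit) of each tested member probe set at T3 48 h against vehicle (left panel) and at T3 6 h against vehicle (right panel), coloured by role, with called probe sets filled. At 48 h every point of the V1, V0, accessory and protease members lies above 0 and glb1.L stands alone at 2.21, while at 6 h no point is filled.

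Among the glycan-cleaving enzymes, glb1.L encodes the beta-galactosidase that removes terminal galactose from glycolipids, glycoproteins and keratan sulfate. Its log2 values were 3.89, 4.61 and 4.57 on the T3 48 h arrays, 2.27, 1.81 and 2.24 on the T3 6 h arrays, and 2.18, 1.87 and 2.39 on the vehicle arrays. Every T3 48 h array was more than 1 log2 unit above every other array, and the other groups overlapped. The fitted change at 48 h was 2.21 ± 0.22 (SE, n = 3 per group, limma adjusted p = 0.000747). The only other tested glycosidase, the alpha-fucosidase fuca1.L, had a log2 change of -0.35 at 48 h with overlapping groups and was not called. Its homeolog fuca1.S and the beta-mannosidase manba.L were below the array median on every array.

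The proteases showed positive changes at 48 h in all 10 tested probe sets, where 44.4% of all tested probe sets did, with a median log2 change of 0.58. Of the 10, 3 were called, all higher, where 4.94% of all tested probe sets were called higher. Cathepsin B is a cysteine protease with endopeptidase and peptidyl-dipeptidase action. Its L homeolog ctsb.L read 4.99, 5.75 and 5.39 on the T3 48 h arrays, 4.83, 4.97 and 5.22 on the T3 6 h arrays, and 4.50, 4.34 and 4.97 on the vehicle arrays. The S homeolog ctsb.S read 6.74, 7.46 and 7.13 on the T3 48 h arrays, 6.30, 6.36 and 6.41 on the T3 6 h arrays, and 6.33, 6.65 and 6.59 on the vehicle arrays. For both, the lowest T3 48 h value was only just above the highest vehicle value, and it came from array 1. The log2 change was 0.77 ± 0.21 for ctsb.L (adjusted p = 0.0468) and 0.58 ± 0.16 for ctsb.S (adjusted p = 0.0438). Legumain, encoded by lgmn.L, cuts after asparagine and processes other lysosomal proteases. It read 6.12, 6.68 and 6.38 on the T3 48 h arrays, 6.23, 6.31 and 6.25 on the T3 6 h arrays, and 5.80, 5.73 and 5.92 on the vehicle arrays, so both T3 groups lay above vehicle without overlap. Its change at 48 h was 0.58 ± 0.13 (adjusted p = 0.0255). The sequence cluster number in the identifier of this lgmn.L probe set is also carried by 16 probe sets of 13 other genes, so its reading as legumain rests on the platform annotation alone.

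Of the proteases that were not called, ctsa.L encodes the serine carboxypeptidase that also holds beta-galactosidase and neuraminidase in a protective complex. It read 4.35, 5.21 and 5.03 on the T3 48 h arrays, 4.16, 3.94 and 4.01 on the T3 6 h arrays, and 4.11, 3.97 and 4.51 on the vehicle arrays. Array 1 of T3 48 h lay within the vehicle range, arrays 2 and 3 lay above it, and the change of 0.67 ± 0.22 missed the threshold (adjusted p = 0.0737). Tripeptidyl peptidase, tpp1.L, removes tripeptides from the N terminus and has 3 probe sets, with log2 changes of 0.69, 0.65 and 0.09. The first of these read 1.32, 1.99 and 1.77 on the T3 48 h arrays, 1.75, 1.20 and 1.38 on the T3 6 h arrays, and 1.22, 0.44 and 1.34 on the vehicle arrays (adjusted p = 0.106). Here too array 1 of T3 48 h fell inside the vehicle range. The remaining tested proteases were ctsc.L, a dipeptidyl peptidase that activates serine proteases of leukocyte granules, at 0.24, ctss.S, known in mammals from antigen-presenting cells, at 0.35, and ctsv.L, a cysteine protease, at 0.38. The probe set of ctsv.L carries a suffix for sequence shared between transcripts, and its cluster number is shared with 4 probe sets of 2 other genes. Both homeologs of the aspartic protease cathepsin E were below the array median on every array.

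Genes of the proton pump made up about as many tested probe sets as all other members. All 26 of them had positive log2 changes at 48 h, where 44.4% of all tested probe sets did. Of the 26, 6 were called, all higher, where 4.94% of all tested probe sets were called higher. Their median log2 change was 0.39, against 0.38 for the 27 other tested members. By sector, 4 of 10 V0 probe sets were called (median 0.41), 2 of 13 V1 probe sets (median 0.31) and 0 of 3 accessory probe sets (median 0.58). The 26 probe sets came from 17 genes, with 4 each from atp6v0c.L in V0 and atp6v1c1.L in V1. Probe sets of the same gene are not independent, so these are not counts of genes.

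In the V0 sector, atp6v0b.L encodes a proteolipid of the ring that carries protons through the membrane. It read 2.55, 2.92 and 3.10 on the T3 48 h arrays, 2.49, 2.36 and 2.49 on the T3 6 h arrays, and 1.86, 1.80 and 2.39 on the vehicle arrays. The T3 48 h arrays were above all other arrays, and the change from vehicle was 0.84 ± 0.19 (adjusted p = 0.0241). The a subunit, atp6v0a1.L, forms the half-channels beside the ring. Its values were 1.11, 1.52 and 1.64 on the T3 48 h arrays, 1.02, 1.04 and 0.95 on the T3 6 h arrays, and 0.84, 0.83 and 0.78 on the vehicle arrays. All 3 groups were separate, in the order T3 48 h, T3 6 h, vehicle, and the change at 48 h was 0.60 ± 0.14 (adjusted p = 0.0295).

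The main proteolipid of the ring, atp6v0c.L, had 4 probe sets with log2 changes of 0.34 to 0.42, and 2 of the 4 were called. One called probe set read 2.48, 2.38 and 2.38 on the T3 48 h arrays, 2.31, 2.29 and 2.30 on the T3 6 h arrays, and 1.97, 1.92 and 2.08 on the vehicle arrays (change 0.42 ± 0.11, adjusted p = 0.0364). The second called probe set read 5.87, 5.68 and 5.81 on the T3 48 h arrays, 5.60, 5.52 and 5.54 on the T3 6 h arrays, and 5.40, 5.26 and 5.49 on the vehicle arrays (change 0.40 ± 0.10, adjusted p = 0.0344). On both, each T3 group lay above vehicle, and for neither was array 1 the lowest of T3 48 h. The d subunit atp6v0d1.L, which joins the ring to the rotor stalk, had 2 probe sets at 0.69 and 0.52, neither called. The one with the larger change read 1.24, 1.96 and 2.11 on the T3 48 h arrays, 1.26, 1.21 and 1.19 on the T3 6 h arrays, and 1.13, 1.02 and 1.09 on the vehicle arrays. Its T3 48 h arrays all exceeded vehicle, yet array 1 sat at the level of T3 6 h, and the adjusted p was 0.0511. The small subunit atp6v0e1.L had a change of 0.29 and was not called.

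In the V1 sector, atp6v1b2.S encodes a nucleotide-binding B subunit and had 2 probe sets. The called one read 3.13, 3.24 and 3.37 on the T3 48 h arrays, 2.79, 2.75 and 2.80 on the T3 6 h arrays, and 2.76, 2.81 and 2.90 on the vehicle arrays (change 0.42 ± 0.12, adjusted p = 0.046). The other read 1.95, 2.57 and 2.91 on the T3 48 h arrays, 1.94, 1.86 and 2.22 on the T3 6 h arrays, and 1.67, 1.66 and 2.12 on the vehicle arrays (change 0.66 ± 0.24, adjusted p = 0.0927). The larger change of the second went with a wider spread and with array 1 of T3 48 h inside the vehicle range. The rotor subunit atp6v1f.L read 3.69, 3.90 and 4.08 on the T3 48 h arrays, 3.45, 3.47 and 3.36 on the T3 6 h arrays, and 3.10, 3.05 and 3.65 on the vehicle arrays. T3 48 h array 1 cleared vehicle array 3 by only a small step, and the change was 0.62 ± 0.17 (adjusted p = 0.0468). Its homeolog atp6v1f.S had a change of 0.35 with overlapping groups.

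The remaining V1 subunits were not called. The catalytic A subunit atp6v1a.L had a change of 0.44 on its tested probe set, with all T3 48 h arrays above vehicle (adjusted p = 0.0834). The 4 probe sets of atp6v1c1.L, the subunit that bridges both sectors, had changes of 0.24 to 0.39, and the 2 of the rotor subunit atp6v1d.L had 0.14 and 0.16. The peripheral stalk subunits atp6v1e1.L and atp6v1g1.S had changes of 0.20 and 0.31. Among the accessory proteins, atp6ap1.2.S, a form of the Ac45 protein that helps assemble the pump, had a change of 0.58 without overlap between groups (adjusted p = 0.0536). The prorenin receptor gene atp6ap2, whose product associates with V0, had changes of 0.54 for the L and 0.63 for the S homeolog, and neither was called.

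**Figure D2:**
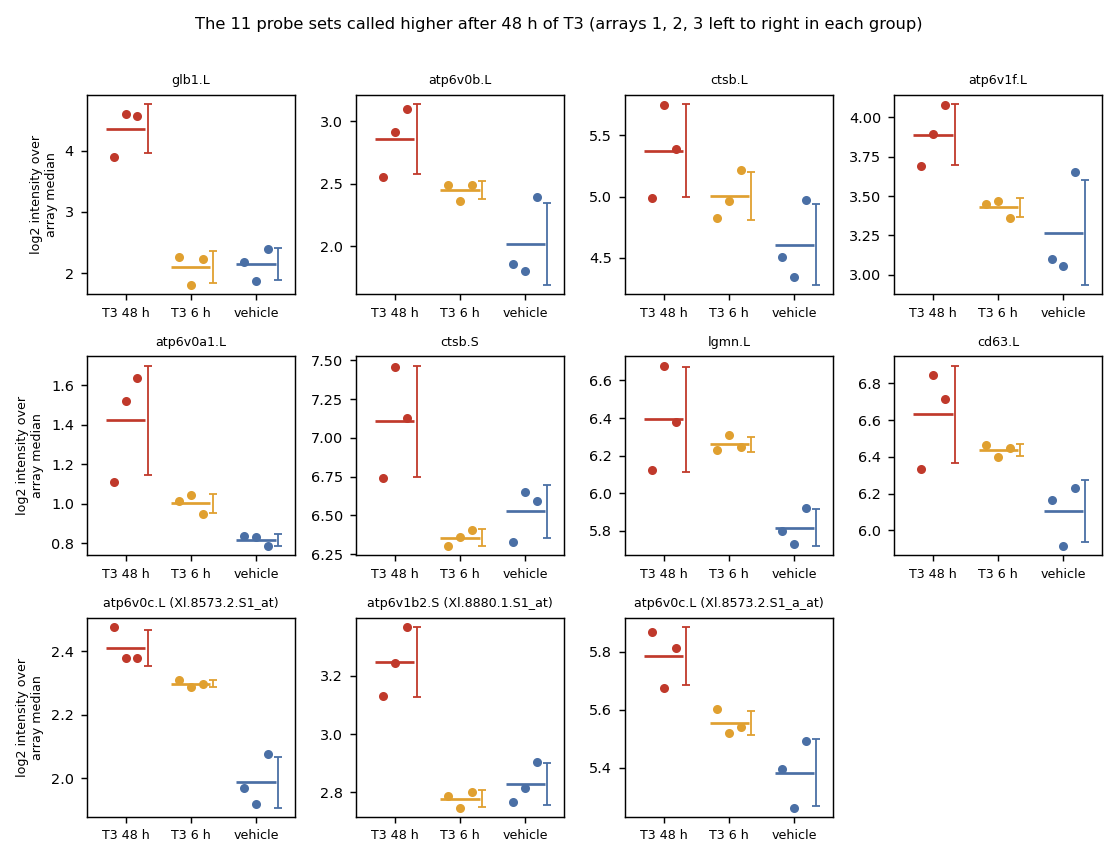
Log2 value on each array (points), group mean (horizontal line) and SD over 3 arrays (vertical bar) for the 11 member probe sets called at 48 h, with T3 48 h at the left, T3 6 h in the middle and vehicle at the right of each panel. A log2 value of 0 is the array median, and each panel has its own scale. The T3 48 h arrays of glb1.L lie at 3.89 to 4.61, above all other arrays, and in most other panels array 1 is the lowest of the T3 48 h points.

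The membrane proteins were mixed. Of their 6 tested probe sets, 1 was called higher at 48 h, where 4.94% of all tested probe sets were. Changes were positive for 4 and negative for 2, and the median was 0.26. The called one, cd63.L, encodes a tetraspanin of late endosomes and lysosomes. It read 6.33, 6.85 and 6.71 on the T3 48 h arrays, 6.46, 6.40 and 6.45 on the T3 6 h arrays, and 6.17, 5.91 and 6.23 on the vehicle arrays. Both T3 groups were above vehicle without overlap, and the change at 48 h was 0.53 ± 0.14 (adjusted p = 0.0357). The calcium channel gene mcoln1.L had a change of 0.64 (adjusted p = 0.0692), and it was the only tested member whose vehicle arrays were all below the array median. The abundant lysosomal membrane glycoprotein gene lamp1.L had 0.40 with overlapping groups. By contrast scarb2, the receptor that carries glucocerebrosidase to lysosomes, had negative changes on both homeologs, -0.36 for scarb2.L and -0.18 for scarb2.S, with overlap.

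None of the 7 tested probe sets for lipid handling was called at 48 h, and their median was 0.36. Over all tested probe sets 4.94% were called higher and 6.05% lower. Acid ceramidase, asah1.L, had a change of 0.53. The cholesterol carrier npc2 had 0.38 for the L and 0.36 for the S homeolog, and the S arrays did not overlap between T3 48 h and vehicle. The saposin precursor gene psap had 0.13 for psap.L and 0.38 for psap.S. Palmitoyl-protein thioesterase, which removes fatty acids from proteins, was the exception: ppt1.L had a change of -0.50 (adjusted p = 0.0714), while ppt1.S had 0.04. Among tested members, ppt1.L was the only one whose T3 48 h arrays all lay below vehicle. The acid phosphatase acp5.S, an osteoclast and macrophage enzyme in mammals, had 0.35, and the granulin precursor gene grn.L had -0.18. Neither was called.

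Homeologs could be compared for 8 pairs tested on both sides. At 48 h 6 pairs were positive on both homeologs, 1 (scarb2) was negative on both and 1 (ppt1) was opposed. Both homeologs were called only for ctsb. For cd63 the change of the L homeolog was 0.53 and that of the S homeolog 0.13. The difference L minus S was 0.91, 1.21 and 0.89 on the T3 48 h arrays and 0.52, 0.63 and 0.67 on the vehicle arrays, without overlap, with p = 0.1 in a two-sided exact permutation test, the smallest that 3 against 3 arrays can give. For atp6v1f the same exact permutation test gave p = 0.3, so the different calls of its homeologs are not shown to be a different response. Across the 8 pairs cd63 was the only one at the smallest possible p for T3 48 h against vehicle. As that p cannot fall under 0.05 with 3 against 3 arrays, a different response is not shown for cd63 either.

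The 3 T3 48 h arrays did not carry the members' shift equally. Measured from the vehicle mean, the median log2 value of the 53 tested members was 0.16 on array 1, 0.47 on array 2 and 0.56 on array 3. On these arrays 23, 42 and 46 of the 53 members exceeded all 3 vehicle arrays, where 24.7%, 35.3% and 30.6% of all tested probe sets did. Array 1 was also the nearest of the 3 to the other groups on the first principal component. With array 1 left out, 29 members were called higher against 11.1% of all tested probe sets and 1 was called lower, ppt1.L, at -0.63 (adjusted p = 0.0222). All 11 members called with every array were among the 29. The added calls included mcoln1.L at 0.87, ctsa.L at 0.92, lamp1.L at 0.62, atp6ap1.2.S at 0.78, asah1.L at 0.76 and both probe sets of atp6v0d1.L at 0.95 and 0.68. Without array 1 the group holds 2 arrays, and what sets array 1 apart was not tested.

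**Figure D3:**
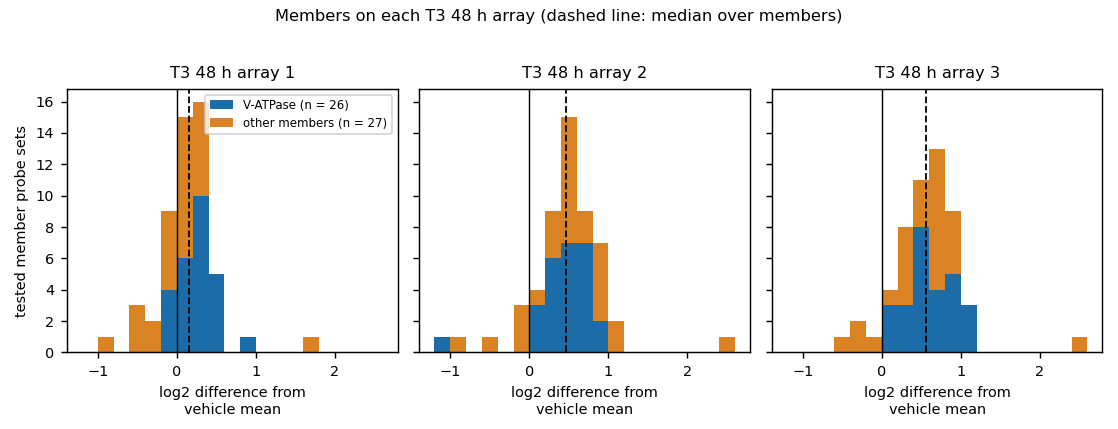
Number of tested member probe sets by their log2 difference from the vehicle mean, in 1 panel for each T3 48 h array, with 26 V-ATPase probe sets and 27 others stacked, a solid line at 0 and a dashed line at the members' median. The median is 0.16 on array 1, 0.47 on array 2 and 0.56 on array 3, and the bar at the far right of each panel is glb1.L.

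A small set of pump genes behaved differently, with a spread between T3 48 h arrays that no member showed in the other groups. The SD over 3 arrays was above 1 log2 unit for 4 of the 62 members at T3 48 h and for 0 at T3 6 h and in vehicle. Over all non-control probe sets this was so for 1.08%, 0.207% and 0.239%. The 4 were atp6v1al.L, an A subunit relative, atp6ap1.1.L, atp6v0a4.L and atp6v0d2.L. In mammals ATP6V0A4 is the a subunit of acid-secreting kidney and inner ear cells, and ATP6V0D2 is the d subunit of osteoclasts and kidney. On the T3 48 h arrays atp6v1al.L read 2.49, -1.44 and 1.04, against -0.64, -0.06 and -0.13 on the T3 6 h arrays and -0.65, -0.19 and -0.17 on the vehicle arrays. Likewise atp6ap1.1.L read 1.48, -1.58 and 0.55 on the T3 48 h arrays, with -0.93, -0.50 and -0.72 on the T3 6 h arrays and -0.96, -0.43 and -0.77 on the vehicle arrays. In both, array 1 was the highest and array 2 the lowest of all 9 arrays.

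The same order held for atp6v0a4.L, at 0.64, -2.05 and -1.03 on the T3 48 h arrays, -1.51, -1.30 and -1.20 on the T3 6 h arrays, and -1.47, -1.64 and -1.62 on the vehicle arrays. It held again for atp6v0d2.L, at 2.00, 0.05 and 1.71 on the T3 48 h arrays, 0.74, 0.73 and 0.66 on the T3 6 h arrays, and 0.86, 1.001 and 1.34 on the vehicle arrays. Array 1 was thus the highest of T3 48 h for these 4, while the median over the 53 tested members was lowest on it. Of these 4, only atp6v0d2.L was tested, with a change of 0.19 ± 0.40 at 48 h (adjusted p = 0.79).

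Markers of proton-secreting ionocytes, the skin cells that move acid with such pump subunits, were measured by 6 probe sets that are not members. Only 1 of the 6, ca2.L, passed the filter, and it was not called at 48 h, with a log2 change of -0.07. Of the untested ones, 2 were below the array median on all 9 arrays. Their summed level, in multiples of the array median, was 2.87 to 7.23 on the T3 48 h arrays, 3.19 to 3.41 on the T3 6 h arrays and 3.19 to 3.60 on the vehicle arrays. The ionocyte transcription factor gene foxi1.L read 0.32, -2.02 and -0.79 on the T3 48 h arrays, and the carbonic anhydrase genes ca2.S and ca12.L read 1.16, -1.08 and -0.14 and 0.13, -1.68 and -0.31. Of the 6 marker probe sets, 5 were highest on array 1 and lowest on array 2 of T3 48 h, as the 4 pump genes were, and ubp1.L was not. For ca2.L and slc4a1.L, unlike the 4 pump genes, T3 48 h array 1 was not the highest of all 9 arrays. It read 0.65 for ca2.L, against 0.67 on vehicle array 2, and -0.30 for slc4a1.L, against -0.09 on T3 6 h array 1. This order is not particular to them: of the 167 non-control probe sets with an SD above 1 at T3 48 h, 109 had it, as did 17.2% of all non-control probe sets. The pump subunit of ionocytes in the B position, atp6v1b1.L, read -0.92, -1.37 and -1.11 on the T3 48 h arrays, -0.98, -0.89 and -0.92 on the T3 6 h arrays, and -0.90, -0.96 and -0.69 on the vehicle arrays. It too was highest on array 1 and lowest on array 2 of T3 48 h. Its array 1 value at T3 48 h lay within the range of the other groups, unlike that of the 4 pump genes. The part of ionocytes in these values was not tested.

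**Figure D4:**
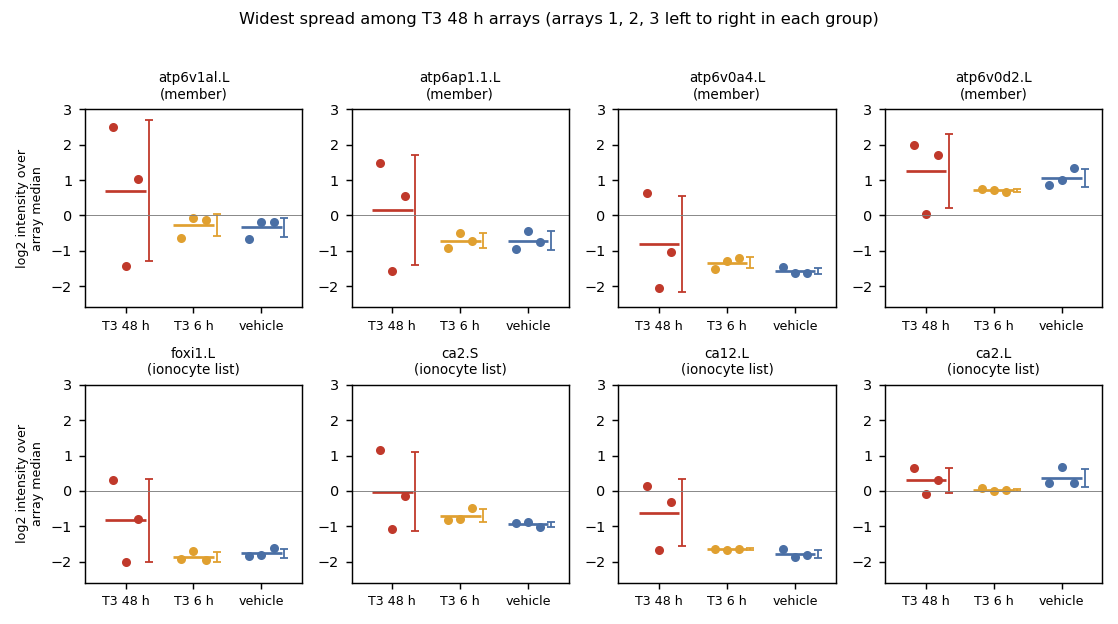
Log2 value on each array (points, arrays 1, 2 and 3 from left to right in each group), group mean (horizontal line) and SD (vertical bar) of the 4 member probe sets with an SD above 1 at T3 48 h (top) and of the ionocyte markers foxi1.L, ca2.S, ca12.L and ca2.L (bottom), with T3 48 h at the left and vehicle at the right. The markers shown are those of the list with the largest SD at T3 48 h, and slc4a1.L and ubp1.L are not shown. In every panel the T3 48 h point of array 1 is the highest of its group and that of array 2 the lowest.

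After 6 h of T3, none of the 53 tested members was called against vehicle, where 0.222% of all tested probe sets were called in either direction. At an unadjusted p under 0.05 there were 4 members, a smaller share than the 15.6% of all tested probe sets at that p. The median log2 change was 0.11, against 0.03 over all tested probe sets, and 40 members were positive and 13 negative. The T3 6 h arrays all lay above vehicle for 7 members, where 14.1% of all tested probe sets did so, and all below for 1 member, atp6v0d2.L, where 10.5% did so. The 7 above were lgmn.L, at 0.44 ± 0.13 (adjusted p = 0.165), cd63.L, at 0.33 ± 0.14 (adjusted p = 0.273), atp6ap1.2.S at 0.19, atp6v0a1.L at 0.18, 1 probe set of atp6v0d1.L at 0.14 and the 2 probe sets of atp6v0c.L that were called at 48 h, at 0.31 and 0.17. The largest change in either direction was that of fuca1.L at -0.53, followed by scarb2.L at 0.47. Member by member, the 2 comparisons with vehicle share the vehicle arrays: glb1.L had a change of 2.21 at 48 h and -0.04 at 6 h, ctsb.S had 0.58 and -0.17, and lgmn.L had 0.58 and 0.44. The other cathepsin B homeolog, ctsb.L, had 0.77 and 0.40.

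T3 48 h against T3 6 h compares the 2 exposed groups, and equals the difference of their effects against the shared vehicle. In it 4 of 53 members were called higher and 0 lower, where 7.51% of all tested probe sets were called higher and 11.9% lower. The share of members called, 4 of 53, was near the background. The 4 were glb1.L at 2.25 ± 0.22 (adjusted p = 0.000448), ctsb.S at 0.75 ± 0.16 (adjusted p = 0.0106), ctsa.L at 0.83 ± 0.22 (adjusted p = 0.0261) and the called probe set of atp6v1b2.S at 0.47 ± 0.12 (adjusted p = 0.0203). All 3 T3 48 h arrays lay above all T3 6 h arrays for each of them. The homeolog ctsb.L was not called, at 0.37 ± 0.21 (adjusted p = 0.248). Nor was the other probe set of atp6v1b2.S, at 0.47 ± 0.24 (adjusted p = 0.188), and for both the arrays overlapped. The median over the 53 members was 0.25, against -0.06 over all tested probe sets. For lgmn.L the difference was 0.13 ± 0.13 and for cd63.L 0.19 ± 0.14, with overlapping arrays. The lowest value was that of scarb2.L, at -0.82 ± 0.31 (adjusted p = 0.0882). Leaving out T3 48 h array 1 gave 18 calls, among them ppt1.L, called lower at -0.60. Leaving out T3 6 h array 1 or array 3 gave 2, and the other 6 such fits gave 3 to 6. Both glb1.L and ctsb.S were called in all 9 such fits. The share of all tested probe sets called in these fits is not given here, so these counts are not set against a background.

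Genes that work with the members were taken from lists of the pathway. Over all tested probe sets 4.94% were called higher and 6.05% lower at 48 h. Enzymes and activators of the lysosome outside the member rule had 4 of 13 tested probe sets called higher at 48 h and 0 lower, with a median of 0.37. The called ones were both homeologs of hyal2, a hyaluronidase found largely at the cell surface in mammals, at 1.44 for hyal2.L and 0.91 for hyal2.S, scpep1.L, a serine carboxypeptidase, at 0.62, and 1 of 2 probe sets of galc.L, the galactosylceramidase, at 0.47. The hyal2.L probe set read 3.08, 4.03 and 3.62 on the T3 48 h arrays, 2.32, 1.83 and 2.62 on the T3 6 h arrays, and 2.13, 2.21 and 2.06 on the vehicle arrays, and its T3 48 h arrays were above all others. Machinery that tags hydrolases with mannose phosphate and sorts them had 5 of 28 called higher and 0 lower, with a median of 0.21. These were 2 probe sets of ap3d1.S, of the AP-3 adaptor that sends membrane proteins to lysosomes, and probe sets of the clathrin chain genes cltc.L, clta.L and clta.S. Other probe sets of cltc.L, at 0.26 and 0.44, and those of cltb.L, at 0.01 and -0.02, were not called. The tagging gene gnptg.L had -0.11 and 0.09 on its tested probe sets and was not called. The mannose phosphate receptor gene m6pr.S had changes of -0.05 to 0.20 on 3 probe sets, none called.

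In the list for lysosomal transcription and nutrient signalling, 1 of 7 was called higher at 48 h and 0 lower, where 4.94% and 6.05% of all tested probe sets were. The called one was tfe3.S, of the transcription factor family that drives lysosomal genes in mammals, which read 2.58, 2.87 and 2.82 on the T3 48 h arrays, 2.21, 2.25 and 2.08 on the T3 6 h arrays, and 2.30, 2.41 and 2.19 on the vehicle arrays (change 0.45 ± 0.13, adjusted p = 0.0487). Its T3 48 h arrays were above the other 6. Lists of other lysosomal membrane proteins (7 tested, median 0.11), of fusion and positioning machinery (11 tested, median -0.04) and of cathepsin inhibitors (3 tested, median 0.13) had 0 calls at 48 h, with 1, 1 and 0 at an unadjusted p under 0.05, each a smaller share than the 30.2% of all tested probe sets. At 6 h none of these lists had a call, and 2, 0, 2, 0, 1 and 1 probe sets had an unadjusted p under 0.05, in the order tagging and sorting, transcription, other hydrolases, other membrane proteins, fusion and inhibitors, of 28, 7, 13, 7, 11 and 3 tested, where 15.6% of all tested probe sets reached that p.

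Cell types that could bring lysosomal RNA were followed by markers outside the member list. At 48 h 4.94% of all tested probe sets were called higher and 6.05% lower, and 30.2% had an unadjusted p under 0.05. At 6 h 0.222% were called in either direction and 15.6% had an unadjusted p under 0.05. Macrophage and leukocyte markers had 0 of 8 tested probe sets called at 48 h and a median of 0.15, with 1 at an unadjusted p under 0.05. Their summed level was 49.9, 40.9 and 85.6 on the T3 48 h arrays, 53.0 to 55.4 on the T3 6 h arrays and 47.7 to 62.3 on the vehicle arrays. Within T3 48 h, that sum was lowest on array 2 and highest on array 3, and the members' median shift was lowest on array 1 and highest on array 3. The pan-leukocyte gene ptprc.L was below the array median on all 9 arrays. Of the osteoclast markers outside the members only mmp9 was measured, with mmp9.2.L called at 1.95 and mmp9.1.S not called at 0.60. The mmp9.2.L probe set was above the array median only on the T3 48 h arrays, so it entered the tests through the group where it was high. Epidermis markers had 1 of 19 called higher at 48 h, krt78.6.L at 3.51, and 7 called lower. The krt78.6.L probe set, like mmp9.2.L, was above the array median only on the T3 48 h arrays. Among the 7 lower were the keratin genes krt12.4.L at -3.15, krt12.5.S at -1.10, krt12.4.S at -2.38, krt12.2.L at -2.24 and krt19.L at -0.59. The summed level of the epidermis markers was 259 to 347 on the T3 48 h arrays, 545 to 590 on the T3 6 h arrays and 496 to 547 on the vehicle arrays. Notochord and cartilage markers had 4 of 5 called lower, namely col9a1.L at -1.86, col2a1.S at -1.76, cnmd.L at -1.28 and col9a1-b at -1.54, with sums of 8.99 to 23.0, 35.6 to 39.8 and 25.6 to 40.2 in the same order of groups. Muscle markers had 0 of 22 called, with 1 at an unadjusted p under 0.05. Erythroid markers had 0 of 5 called at 48 h, with 2 at an unadjusted p under 0.05, all 5 changes positive and a median of 0.52. For 3 of them the T3 48 h arrays all lay above vehicle, where 12.9% of all tested probe sets did so. At 6 h they again had 0 of 5 called, with 4 at an unadjusted p under 0.05 and a median of 1.07. Their summed level was 339 to 597 on the T3 48 h arrays, 431 to 774 on the T3 6 h arrays and 307 to 374 on the vehicle arrays. The part of changed cell make-up in the members' values was not tested.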

How the data were processed

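Deposited intensities, linear and summarised by probe set, were made with GCRMA per the submitters' processing notes; its version and other steps are not given in the sources used here. Each column of the deposited table has a median of 1, so arrays had been scaled to their own median. The log2 of each intensity was taken. Of 15611 probe sets, 120 controls were left out, and 8121 of the remaining 15491 passed log2 0 on at least 3 of 9 arrays. All 9 arrays were fitted together in limma 3.58.1 (R 4.3.3), by group alone, and eBayes used an intensity trend; tests were two-sided, and the fit was checked on simulated data. Errors beside changes are SE of the fit. The labels do not say whether pools of a group were exposed or bred separately, so p-values measure the spread between pools, and the number of arrays limits precision.

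Symbols came from the platform annotation: 9304 probe sets had 1 gene, 195 several and 5992 none. All 62 members matched a RefSeq gene table by ID. Members and lists were chosen with earlier results of these data known. By a rule set beforehand, values on every array were given for the called members and the 4 largest uncalled changes of tested members at 48 h. Outside that rule, they were also given for the 4 pump genes picked by their SD at T3 48 h and for atp6v1b1.L. Up to 6 probe sets called at 48 h were named from other lists by smallest p. Other marker genes named were chosen after their values were seen. Alternatives were quantile normalization, other filters, array weights, other variance settings, centring, 2-group fits, a replicate block and leaving out each array. Probe positions and sequences were not used here.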

Additional observations from a re-analysis of the deposited data

Results flagged for a closer look

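For 4 member probe sets the effect of T3 at 48 h differed from that at 6 h by a test of the difference itself, which is the comparison of both T3 groups in limma, since they share the vehicle arrays. These 4 of 53 tested members were near the share of all tested probe sets called higher in that comparison, 7.51%. The difference in log2 change, 48 h minus 6 h, was 2.25 ± 0.22 for glb1.L (adjusted p = 0.000448), 0.83 ± 0.22 for ctsa.L (adjusted p = 0.0261), 0.75 ± 0.16 for ctsb.S (adjusted p = 0.0106) and 0.47 ± 0.12 for the probe set of atp6v1b2.S that was also called at 48 h (adjusted p = 0.0203). In each, all 3 T3 48 h arrays exceeded all 3 T3 6 h arrays. The difference was not called for the homeolog ctsb.L, at 0.37 ± 0.21 (adjusted p = 0.248). It was not called for the other probe set of atp6v1b2.S either, at 0.47 ± 0.24 (adjusted p = 0.188). In both of these the arrays overlapped. Of the 9 fits that left out 1 array, glb1.L and ctsb.S were called in 9, atp6v1b2.S in 6 and ctsa.L in 4. Exposure time and time in the container cannot be told apart in this difference. No group had the 4 arrays needed to look for single outlying arrays.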

How the results depend on the processing

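For T3 48 h against vehicle, 11 members were called, and the count was 4 with no filter on low values (3.91% of all probe sets called in either direction), 31 with array weights (30 higher, 1 lower; 24.3% of all), 1 when only these 2 groups were fitted (6.08% of all), and 1 to 30 when 1 array was left out. It was 8 to 13 under quantile normalization, the mean filter, a stricter filter, no intensity trend, a robust prior, centring on the tested probe sets and the replicate block. In these fits 8.63% to 13.2% of all tested probe sets were called in either direction. Of the fits without 1 array, the highest count came without T3 48 h array 1, and the cause was not tested. For T3 6 h against vehicle the count of 0 became 1 with array weights (6.74% of all) and was 0 in all other fits. For T3 48 h against T3 6 h the count of 4 became 7 under quantile normalization (18.3% of all), 23 with array weights (22 higher, 1 lower; 33.0% of all) and 8 after centring (18.5% of all). It was 2 to 18 when 1 array was left out, with the shares of all tested probe sets not given here. The members' median log2 change stayed positive in every fit of the 3 comparisons. The gene glb1.L was called at 48 h in every alternative.

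Replicate numbers did not pair the samples: deviations of same-numbered arrays correlated at -0.133 to 0.103. A fit with the replicate block gave 8 calls for T3 48 h against vehicle, where 8.63% of all tested probe sets were called in either direction. It gave 0 for T3 6 h against vehicle and 5 for T3 48 h against T3 6 h, with the shares of all tested probe sets not given here.

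With no detection calls in the files, low probe sets such as atp6v0a4.L depend on the background correction. Signal of homeologs and of transcripts that share sequence was not separated.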
